A study of Mus musculus with 30 samples.

Results

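Matrix Gla protein, 2 small proteoglycans, 2 glycoproteins of the matrix and 5 collagen chains were followed in mouse kidney: Mgp, Bgn, Dcn, Sparc, Fn1, Col1a1, Col1a2, Col3a1, Col4a1 and Col12a1. The members were taken by gene symbol from the array annotation, which gave 19 probe sets for the 10 genes among 13179 in all. Of these, 9 lie on the first array type, called letter A in the sample titles, and 10 on the second, letter B. Kidney total RNA came from C57BL/6 mice, an inbred laboratory strain, in 3 groups of 5. The young control group was control-fed and 5 months old, the old control group was control-fed and 30 months old, and the old calorie-restricted group was 30 months old and had a lowered food intake. Both array types were run for every animal, 30 samples in all, matched through the group and number in the sample titles. The labels give the strain, the age and the diet of each group and no transgene or other agent, and the sex of the mice is not given in the sources used here. Nothing in the labels says that the 5 numbers of a group come from separate mice; the text calls each an animal, and the p-values measure only the spread between these samples.

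The extracellular matrix of the kidney lies beneath the tubules and capillaries as basement membrane and between them as interstitium. Basement membranes are built on type IV collagen, whose most widespread form joins chains made from Col4a1 and Col4a2, while the interstitium holds fibrils of type I collagen (Col1a1 and Col1a2) and type III collagen (Col3a1). The small leucine-rich proteoglycans biglycan (Bgn) and decorin (Dcn) bind such fibrils, fibronectin (Fn1) and SPARC link matrix to cells, and matrix Gla protein (Mgp) is a vitamin K-dependent inhibitor of soft tissue calcification.

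Promoter windows from RefSeq (GRCm38.p6) were at hand for 5 of the 10 genes: Bgn, Col1a2, Col3a1, Col4a1 and Sparc. The 250 bases before the annotated start are printed for Bgn, the called gene that has a window, and for Col3a1, the fibrillar collagen gene with a window and a tested probe set. Each is read 5′ to 3′ in the direction of the gene, and capitals mark a GC box (GGGCGG, or CCGCCC on the other strand) or a TATA box (TATAAA, or TTTATA on the other strand).
Bgn, chrX:73483351-73483600, plus strand: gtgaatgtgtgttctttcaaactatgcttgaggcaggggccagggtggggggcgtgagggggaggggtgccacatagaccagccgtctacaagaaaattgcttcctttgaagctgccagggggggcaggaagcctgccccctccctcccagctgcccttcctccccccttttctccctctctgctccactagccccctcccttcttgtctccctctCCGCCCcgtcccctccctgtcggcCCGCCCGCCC
Col3a1, chr1:45311288-45311537, plus strand: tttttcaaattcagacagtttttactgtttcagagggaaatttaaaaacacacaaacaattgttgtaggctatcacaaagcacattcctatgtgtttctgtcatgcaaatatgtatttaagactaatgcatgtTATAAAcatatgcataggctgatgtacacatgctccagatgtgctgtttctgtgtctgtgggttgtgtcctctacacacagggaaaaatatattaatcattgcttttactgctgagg
The Bgn window has a GC content of 64.4% and 3 GC box matches, which begin 34, 10 and 6 bases before the start, the last pair overlapping. The Col3a1 window has a GC content of 35.2%, no GC box match and 1 TATA box match 117 bases before the start. Neither window holds a CCAAT box (CCAAT, or ATTGG on the other strand). Among 32851 windows of 250 bases, 32.7% hold a GC box match, 12.4% a TATA box match and 33.8% a CCAAT box match. These matches describe the letters of the windows. The windows of Col4a1 and Col4a2, genes on opposite strands, share 78 bases as supplied, before any cut to 250 bases.

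Values are intensities of short-oligonucleotide arrays, scaled per array, and the floor is the level set by the negative values of each array type, 1103 on the first and 1815 on the second. The share of values above the floor was 33.5% to 37.5% per array on the first type and 23.9% to 27.7% on the second. A probe set was tested where at least 5 of 15 arrays were above the floor, which kept 4518 probe sets in all and 11 of the 19 here. The filter kept 8 of the 10 genes, and Fn1 and Col1a2 had no tested probe set. Kidney labels were borne out by tubule genes, since 9 of 9 measured were tested, and podocyte genes were below this filter, with 0 of 3 tested. Animals numbered 1 to 3 and those numbered 4 and 5 stood apart within the groups. Their deviations from the group means, compared across groups, correlated on average with r of 0.22 to 0.33 for other numbers of the same set and with r of -0.36 to -0.24 for numbers of the other set. What this split stands for is not given in the labels. Values within numbers 1 to 3 and within numbers 4 and 5 are therefore given beside the tested changes.

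On the second array type, targets with several probe sets of suffix i, f, s or r had young values in another row order: the order differed between young and old controls for 25 of 26 measured pairs, and between the old groups for 0 of 27. None of the 10 genes has several such probe sets for 1 target, and for other genes such probe sets were left out. Probe sets of suffix f or s that are the only probe set of their target were checked only through group means. These correlated between young and old at r of 0.91 over 621 of suffix f and 0.96 over 957 of suffix s. Between the old groups the values were 0.94 and 0.96. The tested Mgp probe set is of suffix f. Over the 6 tested member probe sets on that array type, young and old group means correlated with r of 0.99, and the old groups with 0.95. Over the 85 probe sets of the affected kind the young and old value was -0.20. These values describe rows and not samples. Means of 6 probe sets that differ widely in level correlate strongly in any case, so this cannot show that each row is in place.

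With age, 3 of the 11 tested probe sets were called higher and 0 lower. These were Mgp, Bgn and Dcn, and over all tested probe sets 2.99% were called higher, 2.17% lower and 5.16% in either direction (limma, Benjamini-Hochberg adjusted p under 0.05). The estimate was above 0 for 10 of the 11, with a median log2 change of 0.48 against -0.04 over all tested. Under calorie restriction, compared with old controls, 1 was called lower (Mgp) and 1 higher (a Col1a1 probe set), against 1.7% and 0.907% of all tested and 2.61% in either direction. That Col1a1 probe set met the filter only through the calorie-restricted arrays. The estimate was below 0 for 8 of the 11, with a median of -0.33 against 0.03. Against the young controls, the calorie-restricted group had 1 call, the same Col1a1 probe set, which was higher, against 5.71% of all tested probe sets in either direction, 2.94% higher and 2.77% lower. None of the 11 lacked overlap in that comparison, against 7.92% of all tested. The comparisons of age and diet share the old controls, so a high or low value there moves both in opposite directions. The 11 probe sets cover 8 genes. Among them, Col3a1 x52046_s_at met the filter only through the old controls, where it is high. Col1a1 u08020_f_at and the Col1a1 probe set of the second array type met it only through the calorie-restricted arrays. The counts of signs and the medians of the 11 rest in part on this selection. The share of all tested probe sets with an estimate above or below 0 is not given.

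**Figure D1:**
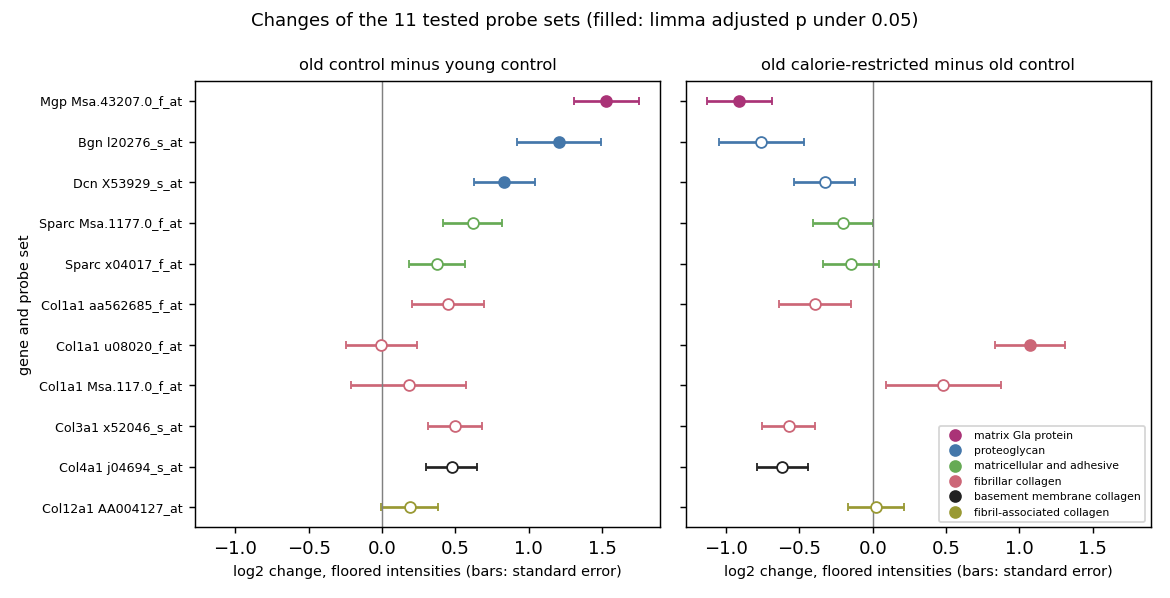
Log2 change of floored intensity for each of the 11 tested probe sets, old minus young controls on the left and calorie-restricted minus old controls on the right, with bars of 1 standard error and filled points where the limma adjusted p is under 0.05. Mgp, Bgn and Dcn are filled on the left, at 1.53, 1.21 and 0.83, and Mgp and 1 Col1a1 probe set are filled on the right, at -0.91 and 1.07.

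Mgp had the largest change with age among the 11. Its probe set on the second array type read 9085, 12537, 12388, 7874 and 6924 in the young controls, numbers 1 to 5. In the old controls it read 28010, 24711, 25680, 39065 and 22097, and in the calorie-restricted animals 17828, 19848, 15404, 10025 and 12061. Every old control lay above every young control and above every calorie-restricted animal, while calorie-restricted and young animals overlapped. Group means were 9762 ± 2582 in young controls, 27913 ± 6585 in old controls and 15034 ± 4033 in calorie-restricted animals (SD, n = 5). Mgp rose 2.88-fold with age, a log2 change of 1.53 ± 0.22 (SE, limma adjusted p = 0.00022).

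Under calorie restriction Mgp fell by 0.91 on the log2 scale, with an SE of 0.22 and a limma adjusted p of 0.040. The calorie-restricted level was 0.62 ± 0.22 above the young on the log2 scale and did not pass the test (limma adjusted p = 0.13). The change with age was 1.22 within numbers 1 to 3 and 1.99 within numbers 4 and 5, and the change with the diet was -0.57 and -1.42. The rise with age kept its call when any animal was left out. The fall with the diet lost it without any of 9 animals: young control 1, old controls 1, 2, 3 and 4, and calorie-restricted animals 1, 3, 4 and 5. Without these the change was between -0.98 and -0.77, and the limma adjusted p reached 0.11.

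The other Mgp probe set, D18292_rc_f_at on the first array type, was above the floor on 1 of 15 arrays and was not tested. Its intensities were 460, 569, 621, -109 and 82 in young controls, 1164, 1041, 590, 557 and 601 in old controls and 549, 485, 558, 335 and 258 in calorie-restricted animals. The old group had the highest mean here too, 791 against 324 in young and 437 in calorie-restricted animals, with overlap in both comparisons. An exact 2-sided permutation test over animals gave p = 0.056 for age and p = 0.016 for the diet, unadjusted. On an asinh scale, in a fit of all probe sets, the change with age was 0.54 (limma adjusted p = 0.22, or 0.019 once the number set is a term). Within groups the intensities of the 2 Mgp probe sets correlated with r of 0.18 over 15 animals.

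Both small proteoglycan genes rose with age. Bgn, probe set l20276_s_at on the first array type, read 2564, 2066, 1392, 2241 and 1755 in young controls and 2870, 4731, 4378, 6262 and 5093 in old controls. In calorie-restricted animals it read 2722, 1198, 3778, 3855 and 2861. The old and young controls did not overlap, as for 2 of the 11 tested probe sets with age (Mgp and Bgn) and 6.77% of all tested, and the calorie-restricted values reached into both groups. The means were 2004 ± 450, 4667 ± 1229 and 2883 ± 1074 in young, old and calorie-restricted animals (SD, n = 5). Bgn rose 2.31-fold with age, a log2 change of 1.21 ± 0.29 (limma adjusted p = 0.019). Its log2 change with the diet was -0.76 ± 0.29 and did not pass (limma adjusted p = 0.22). The change with age was 1.0 within numbers 1 to 3 and 1.51 within numbers 4 and 5, and that with the diet -0.76 and -0.77. The age call was lost without young control 3, young control 5 or old control 4, with adjusted p of 0.063, 0.051 and 0.056 and changes of 1.08, 1.17 and 1.09.

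Dcn, probe set X53929_s_at on the second array type, read 5279, 6477, 4942, 5678 and 3957 in young controls. It read 13054, 8713, 8508, 11472 and 6146 in old controls and 6952, 10507, 6692, 7468 and 6005 in calorie-restricted animals. Old and young controls overlapped only through old control 5 and young control 2, and 4 of 5 calorie-restricted animals lay above every young control. Group means were 5267 ± 930, 9579 ± 2708 and 7525 ± 1748 in young, old and calorie-restricted animals (SD, n = 5). Dcn rose 1.78-fold with age, a log2 change of 0.83 ± 0.21 (limma adjusted p = 0.024), and by nearly the same amount within numbers 1 to 3 (0.84) and within numbers 4 and 5 (0.82). The log2 change with the diet was -0.33 ± 0.21 (limma adjusted p = 0.50), and calorie-restricted animals stood 0.51 ± 0.21 above the young, which did not pass (limma adjusted p = 0.20). The age call was lost without young control 3, young control 5, old control 1 or old control 4, with changes of 0.82, 0.74, 0.71 and 0.76 and limma adjusted p of 0.059, 0.073, 0.055 and 0.065.

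**Figure D2:**
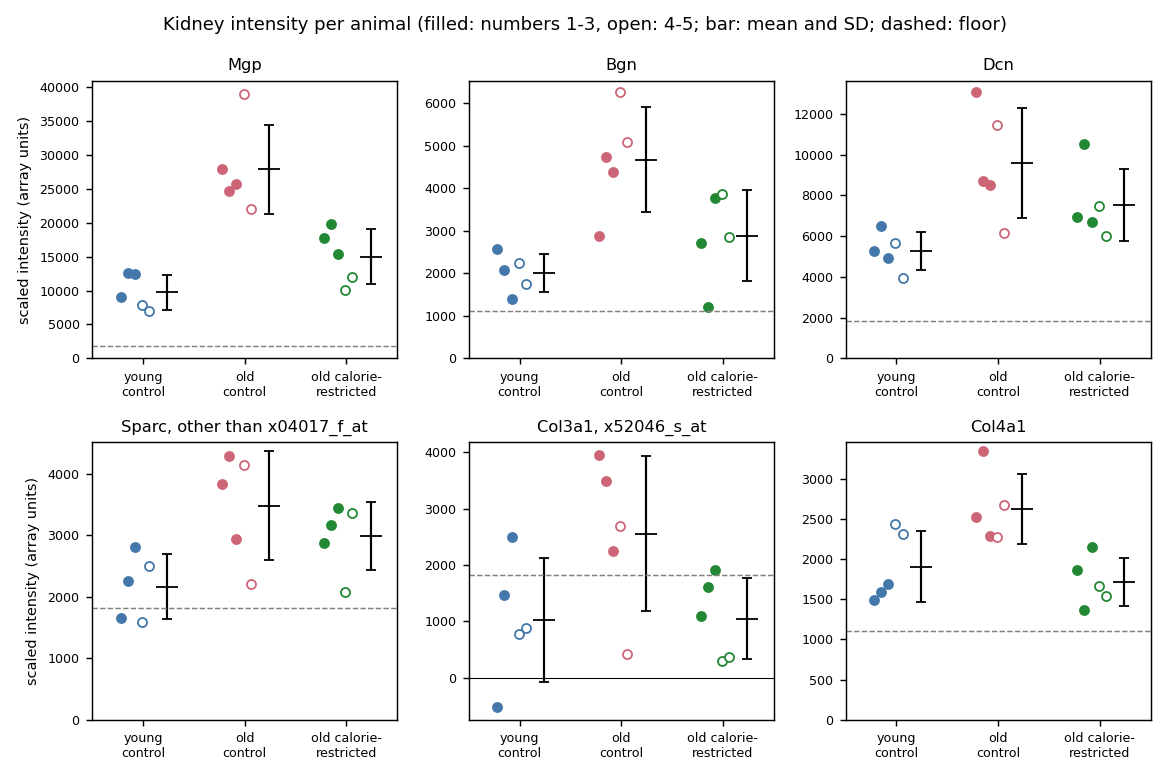
Scaled intensity of each animal (array units, linear axes) for Mgp, Bgn, Dcn, 1 probe set of Sparc, the tested probe set of Col3a1 and Col4a1 in the 3 groups, with the mean and SD of 5 beside the points and the floor dashed. Old controls have the highest mean in all 6 panels. They clear every young control for Mgp and Bgn, and every calorie-restricted animal for Mgp and Col4a1. The Col3a1 probe set met the filter only through the old controls, where it is high. Of the tested probe sets not shown, Col1a1 u08020_f_at, the second-array Col1a1 probe set and Col12a1 AA004127_at have the highest mean in calorie-restricted animals. Col1a1 aa562685_f_at and the other Sparc probe set have it in old controls.

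Sparc encodes a secreted calcium-binding glycoprotein that attaches to collagen, and neither of its probe sets passed in any comparison. The Sparc probe set with the larger change with age read 1659, 2256, 2815, 1589 and 2500 in young controls, 3842, 4295, 2935, 4147 and 2211 in old controls and 2881, 3174, 3451, 2076 and 3372 in calorie-restricted animals. Only old control 5 lay within the young range, and that animal decides the call. The log2 change with age was 0.62 ± 0.20 (limma adjusted p = 0.11) with all animals and 0.77 without old control 5 (limma adjusted p = 0.026). Old control 5 was the lowest of its group, so the call made without it is no support for a change. The other Sparc probe set, x04017_f_at, had means of 2509 ± 596, 3285 ± 677 and 2937 ± 459 in young, old and calorie-restricted animals (SD, n = 5) and a log2 change with age of 0.38 ± 0.19 (limma adjusted p = 0.35). Within numbers 1 to 3 and within numbers 4 and 5 the change with age was 0.12 and 0.76 for x04017_f_at and 0.69 and 0.51 for the other. Both Sparc probe sets lie on the second array type and correlated within groups with r of 0.56 over 15 animals. Their changes with the diet were -0.20 ± 0.20 and -0.15 ± 0.19, and their difference in the change with age, 0.24 ± 0.23, did not pass an exact permutation test (p = 0.33).

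Fibronectin was close to background. Its 2 probe sets, annotated to the same sequence record, are M18194_f_at on the first array type and another on the second. They were above the floor on 3 and 0 of 15 arrays, so no fold is given. The first read 793, 705, 487, 310 and 240 in young controls, 1185, 1352, 1443, 988 and 425 in old controls and 352, 756, 426, 69 and 127 in calorie-restricted animals. The second read 292, 525, 564, 281 and 379 in young controls, 1234, 1732, 904, 1372 and 561 in old controls and 586, 418, 454, 141 and 232 in calorie-restricted animals. On both array types 4 of the 5 old controls lay above every young and every calorie-restricted animal, and the exception was old control 5 each time.

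Exact 2-sided permutation tests of the Fn1 intensities gave unadjusted p of 0.040 and 0.016 for age and 0.024 and 0.016 for the diet, on the first and second array type. Among 24 such tests of the 8 untested probe sets, 6 had an unadjusted p under 0.05, these 4 Fn1 tests, Mgp with the diet and Col3a1 between calorie-restricted and young animals. The 24 tests were not adjusted for their number. The same test was not run over other probe sets below the filter, so no share stands beside the 6. In a fit of all 13041 probe sets on an asinh scale, which takes values under the floor and approaches log2 above it, the first array type gave 0.59 with age (limma adjusted p = 0.23) and -0.79 with the diet (limma adjusted p = 0.093). The second gave 0.53 (limma adjusted p = 0.035) and -0.57 (limma adjusted p = 0.044). In that fit 3.21% of all probe sets were called with age, 1.52% with the diet and 2.65% between calorie-restricted and young animals, and 4, 1 and 0 of the 19 here. Mgp, Bgn and Dcn were the other 3 with age, and the Mgp value with the diet, -0.90, had a limma adjusted p of 0.059. With the number set as a term in that fit, both Fn1 probe sets passed in both comparisons: the limma adjusted p was 0.014 with age and 0.0036 with the diet on the first array type, and 0.018 and 0.021 on the second. Without that term, the call of the second probe set with age was lost when any of 8 animals was left out and that with the diet when any of 14 was, with limma adjusted p of up to 0.092 and 0.11. The first gained both calls without old control 5 (limma adjusted p = 0.039 with age and 0.016 with the diet). That animal is the lowest of the old controls, so leaving it out makes both changes larger. These calls are therefore no support for a change. The Fn1 intensities of the 2 array types correlated within groups at r of 0.54 (n = 15 animals).

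**Figure D3:**
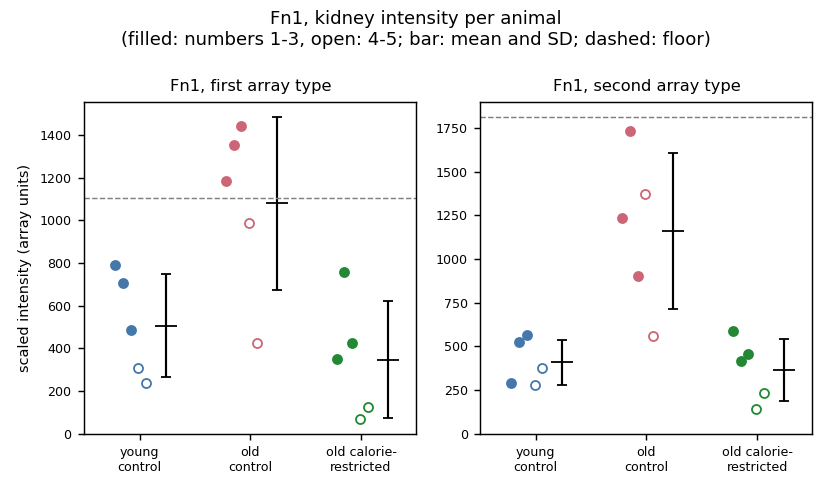
Scaled Fn1 intensity of each animal on the first (left) and second (right) array type, linear axes in array units, with the mean and SD of 5 beside the points and the floor dashed. Old controls average 1078 and 1161, against 507 and 408 in young and 346 and 366 in calorie-restricted animals, and nearly all values lie under the floor.

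The 3 Col1a1 probe sets, all for the alpha-1 chain of type I collagen, did not show the same pattern. Probe set aa562685_f_at on the first array type read 1285, 888, 1431, 959 and 913 in young controls, 999, 3152, 2189, 1395 and 990 in old controls and 1374, 1504, 2, 1199 and 927 in calorie-restricted animals. Its values overlapped in every comparison, and old controls 2 and 3 were the highest. Its log2 changes were 0.45 ± 0.24 with age (limma adjusted p = 0.39) and -0.39 ± 0.24 with the diet (limma adjusted p = 0.49). Within numbers 1 to 3 they were 0.64 and -0.58, and within numbers 4 and 5 they were 0.17 and -0.11.

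Probe set u08020_f_at, on the same arrays, read 225, 606, 95, 1886 and 1235 in young controls and 429, 1229, -27, 1852 and 1015 in old controls, with only 2 of 5 above the floor in each group. In calorie-restricted animals it read 3453, 4060, 2003, 1667 and 2681, all above the floor. Of these, 4 of 5 lay above every old and every young control. The probe set met the filter of 5 arrays only through this group, where it is high, so its calls rest in part on that selection. It was the probe set called higher with the diet, by a log2 change of 1.07 ± 0.24 (limma adjusted p = 0.024). It was also higher than in young controls, by 1.07 ± 0.24 (limma adjusted p = 0.012). The change with age was -0.01 ± 0.24, a value whose sign turned under 8 of 30 alternatives. Most control values were set to the floor. With the floor halved the change with the diet was 1.5 (limma adjusted p = 0.072), and on an asinh scale with no floor it was 1.33 (limma adjusted p = 0.090 over the same probe sets and 0.14 over all 13041). With the floor kept and no filter on low values the limma adjusted p with the diet was 0.095, and the call against young controls was lost too. The change with the diet was 1.41 within numbers 1 to 3 and 0.57 within numbers 4 and 5. Its call was lost without old control 1, 2, 3 or 5 or without calorie-restricted animal 1, 2 or 5, where the limma adjusted p reached 0.076, while the call against young controls held without any single animal.

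The Col1a1 probe set of the second array type is annotated to the same sequence record as u08020_f_at. It read -182, 655, 716, 3147 and 2962 in young controls, 457, 1675, 408, 5179 and 3364 in old controls and 563, 6226, 835, 5918 and 4561 in calorie-restricted animals. Animals 4 and 5 were high in all 3 groups, and among numbers 1 to 3 only calorie-restricted animal 2 was above the floor. The probe set was above the floor in 2 young controls, 2 old controls and 3 calorie-restricted animals. It therefore met the filter of 5 arrays only through the last group, where its mean is highest. Its log2 changes were 0.18 ± 0.39 with age (limma adjusted p = 0.87) and 0.48 ± 0.39 with the diet (limma adjusted p = 0.60). With the diet they were 0.59 within numbers 1 to 3 and 0.32 within numbers 4 and 5. Within groups it correlated with u08020_f_at with r of 0.35, and aa562685_f_at correlated with these at -0.26 and 0.09 (n = 15 animals). Probe sets of suffix f may match several members of a sequence family, and whether each reads Col1a1 alone was not tested.

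The disagreement itself was tested as the difference between probe sets within an animal, for 12 pairs and comparisons of Col1a1 and Sparc. The change with the diet was 1.46 ± 0.38 lower on the log2 scale for aa562685_f_at than for u08020_f_at (difference -1.46, exact permutation p = 0.0079, the smallest that 5 against 5 allows, adjusted p = 0.095). Against young controls the same difference was -1.01 ± 0.27 (exact permutation p = 0.016, adjusted p = 0.095). With age it was 0.46 ± 0.39 (exact permutation p = 0.31). The pair that shares a sequence record differed, second array type minus u08020_f_at, by -0.59 ± 0.51 with the diet (exact permutation p = 0.33). After adjustment 0 of the 12 differences passed at 0.05, with 2 at an unadjusted p under 0.05; with 12 tests of 5 against 5, a single difference cannot pass.

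**Figure D4:**
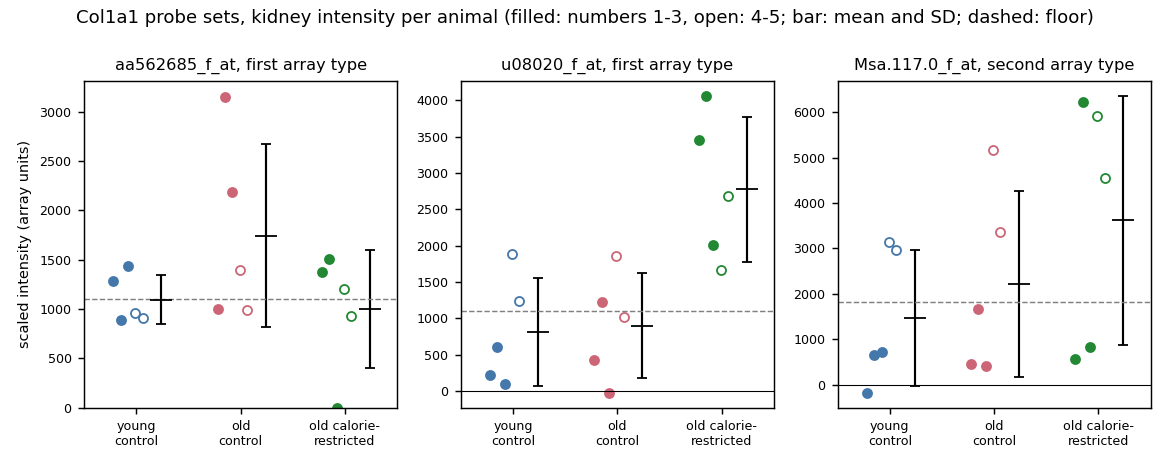
Scaled intensity of each animal for the 3 Col1a1 probe sets, linear axes in array units, numbers 1 to 3 filled and 4 and 5 open, with the mean and SD of 5 beside the points and the floor dashed. Calorie-restricted animals average 2773 in the middle panel against 899 in old controls, and 1001 against 1745 in the left panel. In the right panel the open points are high in every group.

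Col1a2, which encodes the partner chain of Col1a1 in type I collagen, was not above the floor on any array with any of its 3 probe sets. Their values lay between -1826 and 492. Group means were highest in the old controls for all 3, at -176 for X58251_f_at, 77 for Z31334_s_at and 7.37 for the other, and the exact permutation p for age was 0.056, 0.24 and 0.056.

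Col3a1 encodes type III collagen. Its probe set x52046_s_at on the second array type read -517, 1473, 2489, 781 and 887 in young controls, 3947, 3487, 2239, 2694 and 420 in old controls and 1091, 1602, 1910, 294 and 366 in calorie-restricted animals. It was above the floor in 4 old controls, 1 young control and 1 calorie-restricted animal, and old control 5 was among the lowest values. Its log2 changes of 0.50 ± 0.18 with age (limma adjusted p = 0.16) and -0.57 ± 0.18 with the diet (limma adjusted p = 0.13) did not pass. Without old control 5 they were 0.64 (limma adjusted p = 0.034) and -0.72 (limma adjusted p = 0.030), so 1 animal decides both calls. The probe set met the filter only through the old controls, where it is high. Calls made after the low animal of that group is left out are therefore no support for a change. The changes were larger within numbers 1 to 3, at 0.64 and -0.76, than within numbers 4 and 5, at 0.28 and -0.28, which was not tested as a difference. The other Col3a1 probe set, aa259937_s_at, stayed under the floor on all arrays, between -30 and 568. Its means were 135, 211 and 238 in young, old and calorie-restricted animals, and its intensities correlated with those of x52046_s_at within groups with r of -0.02.

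Col4a1, the basement membrane collagen, had lower values under calorie restriction than in old controls without overlap. Probe set j04694_s_at on the first array type read 1496, 1585, 1684, 2440 and 2310 in young controls, 2520, 3337, 2291, 2273 and 2672 in old controls and 1859, 1361, 2146, 1658 and 1541 in calorie-restricted animals. With the diet 2 of the 11 tested probe sets did not overlap, Mgp and Col4a1, against 4.56% of all tested. The means were 1903 ± 439, 2619 ± 434 and 1713 ± 302 in young, old and calorie-restricted animals (SD, n = 5). The log2 change with the diet was -0.62 ± 0.17 and did not pass (limma adjusted p = 0.081). It was -0.61 within numbers 1 to 3 and -0.62 within numbers 4 and 5. With age the log2 change was 0.48 ± 0.17 (limma adjusted p = 0.16), and here the sets differed, 0.76 within numbers 1 to 3 and 0.05 within numbers 4 and 5, young controls 4 and 5 having read within the old range. With the number set as a term in the fit the change with the diet passed (limma adjusted p = 0.048). That was the only 1 of 31 alternatives in which it passed. The same fit called 224 probe sets in all with the diet, against 118 in the main fit. Col4a2, the partner chain, had log2 changes of 0.65 ± 0.22 with age (limma adjusted p = 0.13) and -0.81 ± 0.22 with the diet (limma adjusted p = 0.072). Col4a4, a chain of the mature glomerular basement membrane, had estimates of the opposite sign, -0.76 ± 0.29 and 0.89 ± 0.29, which did not pass (limma adjusted p = 0.18 and 0.14).

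Col12a1 encodes a collagen that attaches to the surface of fibrils. Its probe set AA004127_at on the first array type read 1950, 632, 1424, 1427 and 1697 in young controls, 1585, 408, 1744, 2175 and 2144 in old controls and 1458, 1634, 1862, 2012 and 1736 in calorie-restricted animals. The groups overlapped throughout, with the lowest value in number 2 of both control groups. Its log2 changes were 0.19 ± 0.19 with age (limma adjusted p = 0.71) and 0.02 ± 0.19 with the diet (limma adjusted p = 0.97). The change with age was -0.0022 within numbers 1 to 3 and 0.47 within numbers 4 and 5, and that with the diet 0.18 and -0.21. The other probe set, U25652_s_at, was under the floor on all arrays, between -554 and 125.

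By class, proteoglycans had 2 of 2 tested probe sets called with age and 0 of 2 with the diet. Fibrillar collagens had 0 of 4 and 1 of 4, and basement membrane collagen 0 of 1 and 0 of 1. Over all tested probe sets 5.16% were called with age and 2.61% with the diet. The 1 fibrillar call is u08020_f_at, which met the filter only through the calorie-restricted group. Of 4 further proteoglycans tested (Bcan, Sdc2, Sdc4 and Srgn), 0 were called with age, with a median log2 change of 0.05. With the diet the estimates were below 0 for Bgn, Dcn, Col4a1, Col3a1 and aa562685_f_at of Col1a1. They were above 0 for the other Col1a1 probe sets, 2 of the 4 of fibrillar collagens. Both of these met the filter only through the calorie-restricted group, and Col3a1 only through the old controls. The signs of these fibrillar probe sets therefore rest in part on that selection. Whether the classes differ was not tested. Levels are not compared between genes, since each probe set has its own response.

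Among 57 other matrix genes on 9 lists, 3 rose and 0 fell with age, and 0 rose and 1 fell with the diet, with median log2 changes of 0.12 and -0.07. Over all tested probe sets 5.16% and 2.61% were called and the medians were -0.04 and 0.03, so 3 of 57 with age is close to the share over all. Of 4 further collagens tested (Col5a1, Col6a1, Col6a2 and Col9a2) none passed in either comparison, with log2 changes with age of 0.10 to 0.35. Of 8 genes of collagen synthesis and crosslinking, 1 rose with age: Tgm2, the crosslinking enzyme transglutaminase 2, by 0.83 ± 0.21 (limma adjusted p = 0.024). Thbs1, thrombospondin 1, rose by 0.70 ± 0.19 as 1 of 6 elastic fibre and adhesive genes (limma adjusted p = 0.036), and Alpl, the tissue-nonspecific alkaline phosphatase that promotes mineralisation, by 0.95 ± 0.25 as 1 of 4 genes of calcification control (limma adjusted p = 0.030). With the diet Sdc2, a cell surface heparan sulfate proteoglycan, fell by 0.72 on the log2 scale, as 1 of 4 proteoglycans (limma adjusted p = 0.011). On the list of basement membrane 6 of 18 genes on the arrays were tested, and on that of matrix turnover 10 of 22. On those of matrix receptors and the TGF-beta pathway 9 of 16 and 6 of 22 were tested. No tested gene on these lists passed with age or the diet. The other genes had no tested probe set, among them Tgfb2, Tgfb3, Tgfbr1 and Tgfbr2, so their changes are not known. Tgm2, Thbs1 and Alpl had log2 changes with the diet of -0.03, 0.10 and 0.16, unlike the fall of Mgp, and their differences from Mgp were not tested. Tgm2, Thbs1 and Alpl were also higher in calorie-restricted than in young animals, by 0.80, 0.80 and 1.11 (limma adjusted p = 0.029, 0.015 and 0.010). With these, Dag1, a dystroglycan receptor gene, was higher, and Sdc2 and the meprin genes Mep1a and Mep1b were lower, 4 rises and 3 falls of 57, against 5.71% called over all.

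In whole kidney RNA, more cells of a type and more RNA per cell cannot be told apart, and genes of other cell types moved as well. Of 8 macrophage markers tested, 5 rose with age (Lyz2, Ctss, C1qb, Laptm5 and Fcer1g) and 2 fell with the diet (Ctss and C1qb), and their summed intensity was 21782 to 33395 in young, 38505 to 50905 in old and 22632 to 36288 in calorie-restricted animals. Of 5 B and plasma cell markers, 3 rose with age and 3 fell with the diet (Igha, Ighm and Jchain), with sums of 20977 to 29425, 87130 to 184287 and 25490 to 51046. Of 4 fibroblast and pericyte markers 0 passed (Pdgfrb 0.06 ± 0.11 and Vim 0.36 ± 0.14 with age), with sums of 1098 to 8235 in young, 7565 to 10903 in old and 6468 to 9231 in calorie-restricted animals. Of 4 smooth muscle markers 1 rose with age (Tagln, 0.74 ± 0.17, limma adjusted p = 0.012), and the median log2 change of the 4 was 0.57. Their sums were 7222 to 10579, 12056 to 17371 and 11123 to 18914. Of 4 endothelial markers 0 passed, with a median log2 change with age of 0.30 (Kdr -0.17 and Tie1 0.24, the lowest of the 4). Their sums were 9793 to 14291, 12879 to 19917 and 12324 to 18310. Of 9 tubule markers 2 fell with age (Calb1 and Egf) and Egf rose with the diet, with sums of 273490 to 402699, 225429 to 364365 and 245902 to 370302. Fat, adrenal, red cell and skeletal muscle lists, with 3, 2, 2 and 2 genes tested, had 0 calls, with values with age of 0.51 for Adipoq, -0.16 for Fabp4, 0.33 for Nr5a1, 0.04 for Hsd3b1, 0.73 for Hba-a1, 0.38 for Hbb-b2, -0.66 for Ckm and -0.14 for Tnnc2. Against young controls, the smooth muscle marker Acta2 was higher in calorie-restricted animals, by 0.92 (limma adjusted p = 0.042). So were Igha and Jchain, by 2.14 and 0.81 (limma adjusted p = 0.012 for each), and no other marker was called there. Fbln1 is both a fibroblast marker and on the adhesive list, and Eng both an endothelial marker and on the TGF-beta list. The part of any of these cell types in the changes of Mgp, Bgn and Dcn was not tested.

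Within groups, over 15 animals, Dcn and both Sparc probe sets were the members that varied most closely with Mgp, at r of 0.59, 0.51 and 0.63, while Bgn was at -0.35 and Col4a1 at -0.45. Bgn and Col4a1 lie on the first array type, and Dcn and Sparc on the second, as does the Mgp probe set. The other members on the first type were at 0.12 and 0.43 (Col1a1 aa562685_f_at and u08020_f_at) and -0.25 (Col12a1). On the second type they were at -0.17 (Col1a1) and 0.27 (Col3a1). Whether the array type has a part in these values was not tested. Col3a1 correlated with the Sparc probe set other than x04017_f_at at 0.70. The genes most like Mgp among all tested were Slc25a4, H2-Aa, Cd151, Srgn and Ccn2, at r of 0.85, 0.84, 0.82, 0.79 and 0.77, and those most like Col3a1 were Tra2b, Vim, Sult1d1, Pex14 and Aco1, at 0.86, 0.82, 0.81, 0.78 and 0.77. These lists depend on the scale: quantile normalization kept 1 and 2 of the 5 genes, and halving the floor 3 and 0. The animals also share the split between numbers 1 to 3 and 4 and 5.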

How the data were processed

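Intensities were deposited by the authors as whole numbers per probe set, many negative, in 1 table per array type; the sources used here name neither the software nor the background step. Left out were 122 controls and 77 rows blank on any array. Arrays of a table were scaled to 1 mean, taken without the lowest and highest 2% of values; the floor is the root mean square of all negative values, and lower values were set to it, and log2 was taken, which understates changes near it. limma 3.58.1 in R 4.3.3 fitted all 3 groups at once (lmFit, eBayes), adjusting over all 4518 tested probe sets at 0.05. Exact permutation tests ran over animals. The number of arrays limits the precision. Array symbols were updated by gene number through a RefSeq table of GRCm38.p6, used for names only. The fit was tested on simulated data, where it recovered 73% of log2 changes of 1 with age and 72% with the diet. Of log2 changes of 2 it recovered 100% and 97%. Among its calls 6.5% with age and 8.2% with the diet were false, more than the 0.05 set. Named genes are all probe sets of the 10 genes, up to 4 called genes a matrix list, called or first 2 measured genes a marker list, and the 5 genes most like Mgp and Col3a1; Col4a2, Col4a4, the 4 further collagens and genes called against the young were named after their values were seen. Members and lists were chosen with earlier results of these data known. Alternatives were other scalings, floors, filters, moderation, fits, a replicate block, number sets and leaving out each animal. Samples with the same number correlated across groups with r of -0.01 to 0.49, and since not every pair exceeded 0.1 the numbers were not taken to pair samples.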

Additional observations from a re-analysis of the deposited data

Results flagged for a closer look

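Of 57 groups of 5 values, 1 held a value set far from the others by Dixon's criterion, where chance gives about 1 in 20. For Sparc probe set x04017_f_at, calorie-restricted animal 4 read 2138.43 against 3030.41 for the nearest animal of its group, a gap of 0.78 of the range of the group against a limit of 0.71. The cause was not tested.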

How the results depend on the processing

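Alternatives, up to 31 for a tested probe set, changed 1 choice at a time, except asinh with no filter, which changed both the scale and the filter and was added after seeing the data. The rise of Mgp with age kept its direction and its call under each of them. Counts of called members and of all called probe sets, 3 and 233 with age, 2 and 118 with the diet and 1 and 258 for calorie-restricted against young animals, moved as follows, and the cause was not tested. With no filter on low values the members called were 1, 0 and 0, and with the diet 68 probe sets were called in all. With the floor doubled the members called were 1 with the diet and 0 against young, and with the floor halved 0 with the diet. With asinh in place of floor and log2 they were 1 with the diet; with asinh and no filter, 1 and 0, and 418 and 198 probe sets in all with age and diet. With only the groups compared, 0 members and 72 probe sets were called with the diet. Numbers 1 to 3 alone gave 1 member with age and 1 with the diet, and 253 probe sets with the diet; numbers 4 and 5 alone gave 0 members with the diet and 0 against young, and 146, 9 and 104 probe sets. The number set as a term gave 224 with the diet and 439 against young. Without the targets of exchanged row order 150 were called with age and 169 against young. Leaving out 1 animal gave 1 to 5 members with age, 0 to 2 with the diet and 1 against young, and 179 to 254, 73 to 133 and 195 to 266 probe sets in all; the lowest for members with age was reached without young control 3, young control 5 or old control 4 and the highest without old control 5, and the diet total was 73 without calorie-restricted animal 1 and 78 without number 5. With the replicate block the numbers called were 3, 2 and 1 among the members and 277, 170 and 325 in all; the block changed no call of the 11 tested probe sets. On the asinh scale it gave both calls to the Fn1 probe set of the first array type (limma adjusted p = 0.027 with age and 0.012 with the diet), kept both of the second (0.043 and 0.049) and changed no other call of the 8. Few samples correlated best with their own number: 0 of 5 between young and old controls, 1 of 5 between young and calorie-restricted animals and 0 of 5 between the old groups.

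Values that changed sign were small and not called. With age Col1a1 u08020_f_at became 0.14 with the floor halved, 0.10 with asinh (with and without the filter) and 0.052 in numbers 1 to 3, and ranged from -0.15 to 0.14 when an animal was left out; the Col1a1 probe set of the second array type ranged from -0.078 to 0.30, and Col12a1 AA004127_at became -0.0022 in numbers 1 to 3. With the diet Col12a1 AA004127_at became -0.21 in numbers 4 and 5 and ranged from -0.13 to 0.11. Against young, Col1a1 aa562685_f_at became -0.035 with the floor halved and -0.14 with asinh, ranging from -0.0098 to 0.12; Col3a1 x52046_s_at became 0.0010 and 0.050, ranging from -0.099 to 0.015; and Col4a1 became 0.15 in numbers 1 to 3. Between Col1a1 probe sets, that of the second array type minus u08020_f_at against young became 0.00060 with the floor doubled, the same minus aa562685_f_at with age ranged from -0.58 to 0.088, and the Sparc pair with the diet from -0.18 to 0.028. On the asinh scale Col3a1 aa259937_s_at became -0.13 with age in numbers 4 and 5 and -0.11 with the diet in numbers 1 to 3, ranging from -0.017 to 0.17 and -0.038 to 0.15. Col12a1 U25652_s_at became 0.042 with age under quantile normalization and 0.014 in numbers 1 to 3, ranging from -0.13 to 0.091, and -0.30 with the diet in numbers 4 and 5.

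Calls on the lists also moved: Thbs1 lost its call with age under 16 of 31 alternatives, Alpl under 10, and Sdc2 with the diet under 2. The count of the collagen synthesis list, which holds Tgm2, was lower under 5 and higher under 3; those of tubule and macrophage markers with age were lower under 20 and 9, and that of tubule markers with the diet under 12. The basement membrane list gained calls under 5 alternatives with age and 6 with the diet. Low signal limits the 8 untested probe sets of the 19, and Col3a1 x52046_s_at and the Col1a1 probe set of the second array type, above the floor on 6 and 7 of 15 arrays.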
